A study of Mus musculus with 24 samples.

Results

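Striatal projection neurons, also called medium spiny neurons, were followed through 9 genes that mark them or carry their signalling: Drd1, Drd2, Adora2a, Gpr6, Penk, Tac1, Ppp1r1b, Rgs9 and Pde10a. The genes were listed by name from their known roles, but earlier results of these data were known when they were chosen. All 9 were found among the 53465 genes of the count files and passed the filter on low counts. The libraries were made from total RNA of brain from 12 mice, 6 of the inbred strain CAST/EiJ (CAST) and 6 of WSB/EiJ (WSB). The series set out to find genes that differ between strains with unequal infarct volume after arterial occlusion. The labels give strain, animal, lane and library index for each sample, and no genotype beyond the strain, treatment, time, sex, age, dissection or batch. Animals carry the numbers of the labels (CAST_142, WSB_100 and so on), and all CAST indexes precede all WSB indexes, so that index order and strain cannot be told apart.

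Medium spiny neurons are the output neurons of the striatum and make up most of its cells. Those of the direct pathway carry the D1 dopamine receptor, which raises cyclic AMP, and the precursor of substance P. Those of the indirect pathway carry the D2 receptor, which lowers cyclic AMP, together with an adenosine receptor and the enkephalin precursor. In both kinds, cyclic AMP acts through protein kinase A and the phosphoprotein DARPP-32, and is broken down by phosphodiesterases such as PDE10A.

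In mouse genome GRCm38 with the GENCODE M21 annotation, the dopamine receptor genes lie at chr13:54051183-54055705 (Drd1, minus strand) and chr9:49340627-49408177 (Drd2, plus strand). Adora2a lies at chr10:75316877-75334784 (plus) and Gpr6 at chr10:41069977-41072285 (minus). The peptide precursor genes lie at chr4:4133531-4138819 (Penk, minus) and chr6:7554879-7565834 (Tac1, plus). Ppp1r1b lies at chr11:98348404-98357796 (plus), Rgs9 at chr11:109225355-109298129 (minus) and Pde10a at chr17:8525372-8986648 (plus). The files carry them as Ensembl genes with these spans covering exons, introns and untranslated regions.

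RefSeq promoter windows of 300 bases (250 before the transcription start and 50 after it, build GRCm38.p6) were matched for 6 of the 9 genes, namely Drd1, Drd2, Gpr6, Tac1, Rgs9 and Pde10a. The windows shown belong to the pair of dopamine receptors and to the 2 members with a match to the cyclic AMP response element or its core. They are written 5′ to 3′ on the strand of the gene, and capitals mark matches on either strand to the cyclic AMP response element (TGACGTCA), its core (TGACG) or the GC box (GGGCGG). They lie at chr13:54055609-54055908 (Drd1, minus), chr9:49340153-49340452 (Drd2, plus), chr10:41072241-41072540 (Gpr6, minus) and chr6:7554811-7555110 (Tac1, plus).
Drd1: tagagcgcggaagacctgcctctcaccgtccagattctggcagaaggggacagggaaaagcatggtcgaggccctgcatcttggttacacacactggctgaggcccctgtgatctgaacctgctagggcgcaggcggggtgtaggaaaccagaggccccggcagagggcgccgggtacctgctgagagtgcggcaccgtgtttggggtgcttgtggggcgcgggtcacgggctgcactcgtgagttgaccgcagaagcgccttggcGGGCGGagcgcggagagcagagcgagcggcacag
Drd2: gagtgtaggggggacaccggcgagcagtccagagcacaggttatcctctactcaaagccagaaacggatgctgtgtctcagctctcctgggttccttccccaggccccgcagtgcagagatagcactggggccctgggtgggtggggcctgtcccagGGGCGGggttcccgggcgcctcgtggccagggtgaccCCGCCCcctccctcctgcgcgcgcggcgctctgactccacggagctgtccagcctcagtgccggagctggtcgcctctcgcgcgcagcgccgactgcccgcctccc
Gpr6: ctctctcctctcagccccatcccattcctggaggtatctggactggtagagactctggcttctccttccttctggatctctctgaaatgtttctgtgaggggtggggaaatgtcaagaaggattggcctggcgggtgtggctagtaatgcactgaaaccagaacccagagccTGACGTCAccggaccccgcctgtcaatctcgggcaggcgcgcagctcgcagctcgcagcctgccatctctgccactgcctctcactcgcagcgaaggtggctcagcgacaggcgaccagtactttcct
Tac1: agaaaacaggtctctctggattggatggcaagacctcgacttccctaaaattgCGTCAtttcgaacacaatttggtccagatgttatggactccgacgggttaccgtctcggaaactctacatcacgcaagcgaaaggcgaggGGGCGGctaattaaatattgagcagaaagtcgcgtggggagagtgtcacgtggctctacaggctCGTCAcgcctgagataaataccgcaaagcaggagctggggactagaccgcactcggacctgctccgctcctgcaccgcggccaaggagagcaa
The Gpr6 window held 1 full element, which also accounts for its 2 matches to the core. Tac1 held 2 cores outside a full element and 1 GC box, Drd1 held 1 GC box and Drd2 held 2. The windows of Rgs9 and Pde10a and the other Drd1 window, not shown, held no full element or core. Among all 32851 windows of the same length, 1.79% held the full element, 20.8% the core and 35.7% a GC box. Because Gpr6 and Tac1 are shown for their matches, these shares do not set them apart. These matches describe letters in the windows, and no binding was measured.

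Each animal had 32982569 to 46513232 reads in genes after its lanes were summed, which was 62.9% to 68.0% of all counted alignments. Library CAST_142 stood apart. Its summed level of the cerebellar marker list was 1599 CPM (reads of a gene per 1000000 reads in genes, with library sizes scaled by TMM), against 51.0 to 107 in the other CAST animals and 51.5 to 76.5 in WSB. All 7 tested markers of the list were highest in that library, and Pcp2 and Cbln1, whose bodies lie inside other genes, were listed at 0 in every animal. The microglial list was low in it (128 CPM against 191 to 218 in the other CAST animals and 201.4 to 221 in WSB), with all 5 of its genes lowest there. The summed interneuron list was 446 CPM in it against at most 419 elsewhere, but 7 of its 9 tested genes were lowest in CAST_142, and Pvalb (195 CPM against at most 50.9) and Nos1 (144 CPM against at most 133) were the 2 that were highest. The thalamic sum of 511 CPM was likewise above all others through Rora (426 CPM against at most 297), while 1 of the 5 genes was lowest and 3 were inside the range of the other animals. WSB_100 also had a high olfactory bulb sum of 218 CPM, the highest of WSB, against 24.7 to 52.3 in the CAST animals other than CAST_142. Its striatal transcription factor sum of 942 CPM was the highest of WSB too, as was its sum of the other indirect pathway genes (48.2 CPM). Within the factor list Meis2 reached 439.5 CPM in its highest WSB animal and Bcl11b, the next, 230.1. The striatal signalling partners summed to 3428 CPM in WSB_100, within the WSB range of 2887 to 3960. Its sums of other direct pathway and other striatum-enriched genes were also inside the WSB ranges. In bulk tissue, fewer cells of a type and less RNA per cell cannot be told apart. The part that tissue makeup plays in the values below was not tested, and values without CAST_142 stand beside the strain results.

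The 9 genes differed widely between animals and no difference between the strains exceeded that spread. Drd1, the receptor of the direct pathway, had 5.63 CPM in the lowest CAST animal, a median of 64.3 and 82.2 in the highest, and in WSB 43.2, 70.97 and 82.6. Drd2, the receptor of the indirect pathway, ran from 4.13 through a median of 47.5 to 57.2 CPM in CAST and from 31.7 through 52.1 to 66.6 in WSB. CAST_142 held the low end for both receptors, the other 5 CAST animals lay among or near the WSB animals, and the ranges overlapped. The mean of Drd1 was 54.9 ± 28.3 CPM (SD, n = 6) in CAST and 68.2 ± 14.7 (SD, n = 6) in WSB. That of Drd2 was 40.3 ± 20.3 and 52.4 ± 12.1 CPM (SD over 6 animals each). By edgeR's quasi-likelihood test, the log2 difference of CAST from WSB was -0.31 ± 0.42 (SE) for Drd1 with an adjusted p of 0.588, and -0.38 ± 0.42 for Drd2 with an adjusted p of 0.503.

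Adora2a, the adenosine receptor gene whose product opposes D2 signalling in indirect pathway neurons, had 2.67 CPM in the lowest CAST animal, a median of 65.6 and 85.6 in the highest. In WSB its lowest, median and highest values were 48.8, 81.99 and 101.6 CPM. Gpr6, an orphan receptor of indirect pathway neurons that acts through Gs, ran from 1.02 through 15.1 to 19.8 CPM in CAST and from 8.88 through 15.7 to 17.8 in WSB. Both were lowest in CAST_142 by a wide gap, and in both the strains' ranges overlapped. Adora2a averaged 57.5 ± 32.0 CPM in CAST and 81.0 ± 19.9 in WSB (SD over 6 animals each), which is a log2 difference of -0.49 ± 0.51 (SE; edgeR, adjusted p = 0.465). Gpr6 averaged 12.8 ± 6.93 and 14.6 ± 3.14 CPM (SD over 6 animals each), which is a log2 difference of -0.19 ± 0.45 (SE; edgeR, adjusted p = 0.761). The difference was thus smaller than its standard error in both.

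Penk encodes the precursor of the enkephalins, peptides of the indirect pathway. It had 26.5 CPM in the lowest CAST animal, a median of 119 and 146.6 in the highest, against 92.4, 159 and 197.8 in WSB. Tac1, the precursor of substance P in direct pathway neurons, ran from 10.6 through 38.1 to 49.4 CPM in CAST and from 26.7 through 50.4 to 60.9 in WSB. CAST_142 was again the lowest, WSB_138 and WSB_147 were the highest, and the ranges overlapped. The mean of Penk was 107 ± 45.9 CPM in CAST and 156 ± 39.4 in WSB (SD over 6 animals each), and its log2 difference of -0.54 ± 0.32 (SE; edgeR, adjusted p = 0.200) was the most negative of the 9. Tac1 averaged 35.9 ± 14.3 and 48.7 ± 12.7 CPM (SD over 6 animals each), which is a log2 difference of -0.44 ± 0.30 (SE; edgeR, adjusted p = 0.264). Neither peptide gene passed the threshold of 0.05.

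Ppp1r1b encodes DARPP-32, which inhibits protein phosphatase 1 once protein kinase A has phosphorylated it. Only 24.6% of its body and 48.0% of its exon bases lie outside other annotated genes, so its count may hold part of its reads. It ran from 38.0 through a median of 150.1 to 195 CPM in CAST and from 91.9 through 156 to 182 in WSB. Rgs9 encodes a regulator that speeds the shut-off of G proteins, and had 28.4 CPM in the lowest CAST animal, a median of 253 and 335 in the highest, against 181, 273 and 327 in WSB. Pde10a, the phosphodiesterase, ran from 234 through 588 to 700 CPM in CAST and from 442 through 572 to 637 in WSB. CAST_142 was lowest for the 3 genes and CAST_200 or CAST_203 highest, so that the CAST range enclosed the WSB range in each. The means in CAST and WSB (SD over 6 animals each) were 134.97 ± 62.2 and 149 ± 35.5 CPM for Ppp1r1b, 223 ± 112 and 268 ± 52.6 for Rgs9, and 522 ± 194 and 561 ± 71.6 for Pde10a. The log2 differences by edgeR were -0.14 ± 0.32 (SE; adjusted p = 0.754), -0.27 ± 0.40 (adjusted p = 0.629) and -0.10 ± 0.23 (adjusted p = 0.748) in the same order.

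**Figure D1:**
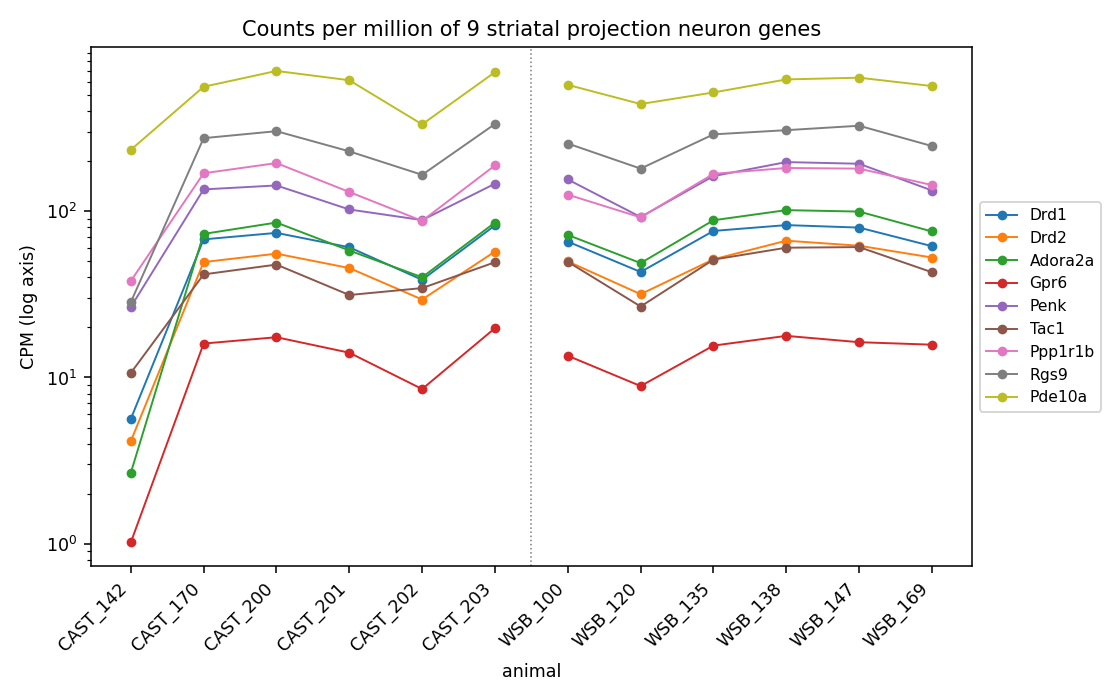
CPM on a log axis (vertical) in each of the 12 animals (horizontal, CAST left and WSB right of the dotted line), with a coloured line for each of the 9 genes; the lines only join the values of a gene. CAST_142 is the lowest animal on all 9 lines, at 1.02 CPM for Gpr6 and 234 CPM for Pde10a. Over the other 11 animals the lines run near parallel, with dips at WSB_120 and, except for Tac1, at CAST_202. Tac1 was lower in CAST_201 (31.4 CPM) than in CAST_202 (34.5 CPM).

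Per kilobase of exon, Penk had the highest level of the 9 genes at 65.6 ± 28.1 CPM in CAST and 95.4 ± 24.1 in WSB (SD over 6 animals each). Ppp1r1b (46.1 and 50.8), Pde10a (40.6 and 43.6) and Rgs9 (34.9 and 41.98) followed, and these 3 neighbours lay within 1 SD of each other. Adora2a (18.8 and 26.5), Drd2 (15.8 and 20.6) and Drd1 (15.1 and 18.8) came next, with neighbours again within 1 SD in both strains. Tac1 had 10.6 ± 4.20 and 14.3 ± 3.74, and Gpr6 was the lowest at 7.18 ± 3.88 and 8.19 ± 1.76 CPM per exon kilobase (SD over 6 animals each). The order was the same in both strains. In CAST each gene lay within the larger SD of its neighbour in this order, while in WSB the steps from Penk to Ppp1r1b, Rgs9 to Adora2a, Drd1 to Tac1 and Tac1 to Gpr6 exceeded both SDs. A count may include intronic reads, which would add to the level of genes with long introns such as Pde10a and Drd2.

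None of the 9 genes was called between the strains (0 of 9 at an adjusted p under 0.05 by edgeR), while 42.7% of the 18425 genes tested were called (21.5% higher and 21.2% lower in CAST). The count was also 0 of 9 at an unadjusted p under 0.05, and 0 of 9 by DESeq2. The CPM ranges of the strains were separate for 0 of the 9 genes and for 27.1% of all genes. All 9 log2 differences of CAST from WSB were negative, with a median of -0.31 against 0.005 over all genes. Their 95% intervals were wide: from -1.59 to 0.60 for Adora2a, from -1.24 to 0.16 for Penk, and from -0.60 to 0.39 for Pde10a, so that a lower level in CAST by 1 log2 unit lies inside the interval for 7 of them. Without CAST_142, 0 of 9 genes were called against 46.9% of all genes, and the median log2 difference was -0.077. Drd1 was then at -0.077 ± 0.20 (SE; edgeR, adjusted p = 0.787), Drd2 at -0.14 ± 0.20 (adjusted p = 0.593) and Rgs9 at -0.036 ± 0.19 (adjusted p = 0.894). Penk was at -0.34 ± 0.20 (SE; edgeR, adjusted p = 0.191), Tac1 at -0.25 ± 0.20 (adjusted p = 0.341) and Adora2a at -0.24 ± 0.23 (adjusted p = 0.417). Gpr6 (0.052), Ppp1r1b (0.050) and Pde10a (0.045) turned positive, and Pde10a was also at 0.0021 without CAST_202 (edgeR, adjusted p = 0.995).

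**Figure D2:**
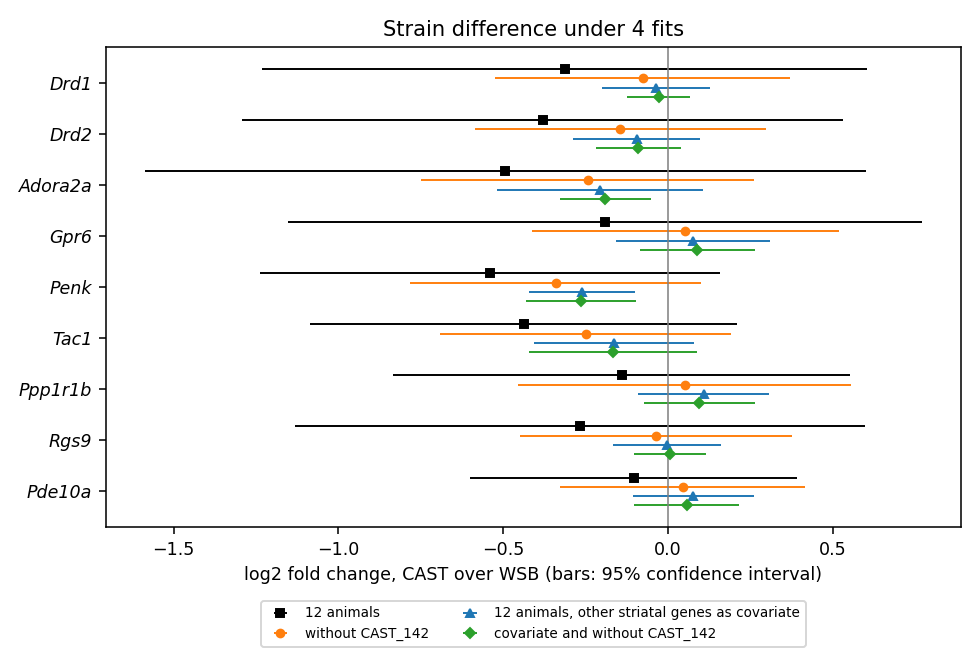
Log2 fold change of CAST over WSB (horizontal) for each of the 9 genes (vertical) by edgeR, with 95% intervals as bars, in 4 fits: all 12 animals, without CAST_142, with other striatal genes as covariate, and with both changes. Every interval of the fits without a covariate includes 0, and with the covariate that of Penk lies below 0, as does that of Adora2a once CAST_142 is left out.

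CAST_142 held unequal shares of the usual level of the 9 genes. Adora2a had 3.65% of the median of the other 5 CAST animals (118 reads), a level 27.4-fold lower. Gpr6 had 6.35% (45 reads), Drd1 8.30% (249 reads), Drd2 8.35% (183 reads) and Rgs9 10.3% (1256 reads). Penk had 19.6%, Ppp1r1b 22.5%, Tac1 25.5% and Pde10a 38.1% left, the last on 10376 reads. The receptors and Rgs9 therefore stood lowest and the peptide precursors, Ppp1r1b and Pde10a higher, with both pathways represented in each group. These values come from a single library and have no replicate. Other markers moved in it too: the striatal transcription factor list summed to 235 CPM against 451 to 724 in the other CAST animals, and the cortical excitatory list to 617 against 738 to 1022. The general neuronal list was at 5927 CPM, inside the range of 5238 to 5984 of the other CAST animals. Its sum hides opposite shifts, as 3 of its 6 genes were highest and 1 was lowest in CAST_142. Rbfox3 had 557 CPM there against at most 428 elsewhere, and Syt1 had 1411 against at least 1657.

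**Figure D3:**
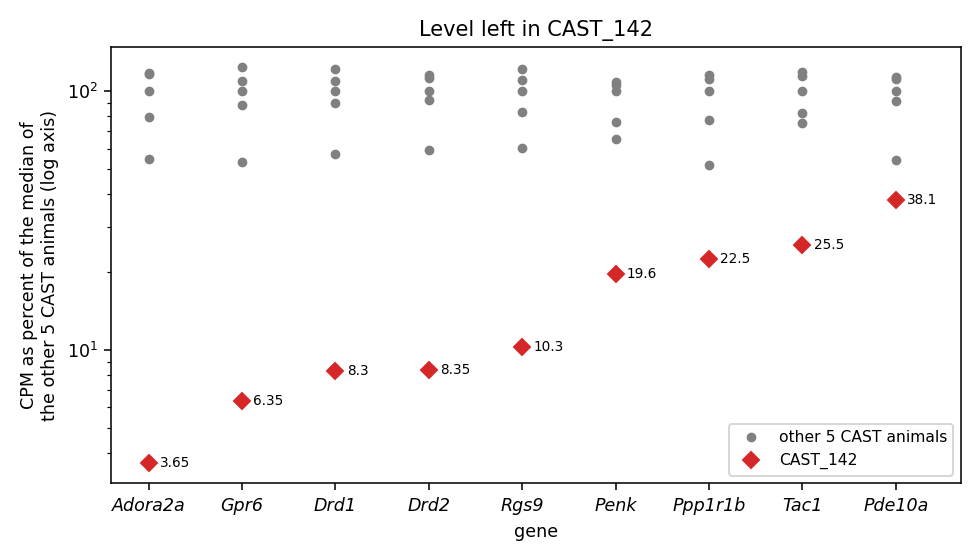
CPM as a percent of the median of the 5 CAST animals other than CAST_142 (vertical, log axis) for each of the 9 genes (horizontal), with CAST_142 as a red diamond and the other 5 animals as grey points. The diamonds rise from 3.65% for Adora2a to 38.1% for Pde10a, and all lie below the grey points of their gene.

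The spread among animals was large beside that of other genes. The within-strain SD of log2 CPM was highest for Adora2a (1.39) and lowest for Pde10a (0.48), with a median of 0.97 over the 9 genes and 0.18 over all tested genes. Without CAST_142 the medians were 0.38 and 0.15. Among the other 11 animals, the highest level of a gene exceeded the lowest by 2.02-fold (Rgs9) to 2.54-fold (Adora2a). CAST_202 was the lowest of these 11 for 8 of the 9 genes and WSB_120 for Tac1. These animals also had high summed levels of the thalamic marker list, at 427 CPM in CAST_202 against 263 to 427 over the CAST animals other than CAST_142, and at 432 CPM in WSB_120 against 241 to 471 over WSB. The oligodendrocyte list was highest in both, at 1763 CPM in CAST_202 among the CAST animals other than CAST_142, and at 2549 in WSB_120 among WSB. The hypothalamic list went opposite ways in the same comparison, being highest in CAST_202 (93.4 CPM) and lowest in WSB_120 (8.50 CPM). The choroid plexus list was at 632 CPM in WSB_120, within the WSB range of 50.1 to 717. The part of these lists in the spread was not tested.

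Levels of the 9 genes rose and fell together over the animals. With each strain's mean removed, Pearson's r over the 12 animals ran from 0.85 to 0.999 over the 36 pairs, with a median of 0.96, and Spearman's rho from 0.74 to 1 with a median of 0.94. All 36 pairs passed an adjusted p of 0.05 by either measure (permutation within strain, 2-sided, Benjamini-Hochberg over 36 pairs). No share of passing pairs among other genes is given beside this count, so it does not set the members apart. Drd1 and Rgs9 were the closest pair, with r = 0.999 and rho = 0.986 (both permutation p = 1e-05, the smallest that 100000 resamples give), and r was 0.989 without the 2 animals farthest from the median. Tac1 and Pde10a were the most distant pair, with r = 0.85 (permutation p = 0.00302) and rho = 0.74 (permutation p = 0.0136), and r was 0.575 without the 2 farthest animals, CAST_142 and WSB_120. Receptors had high r both across and within pathways over the 12 animals. Drd1 had r = 0.997 with Drd2 and with Adora2a, and Drd2 had r = 0.996 with Adora2a. The highest r of Drd2 was with Gpr6, of the same pathway, at 0.997, and at 0.978 without CAST_142. A difference between pairs of the same and of opposite pathways was not tested.

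Because CAST_142 lay far from the rest, the correlations were computed without it and within each strain. Over the other 11 animals r ran from 0.60 (Tac1 and Pde10a) to 0.995 (Adora2a and Ppp1r1b), with a median of 0.945, and all 36 pairs passed by r and by rho. Within CAST, which holds CAST_142, r was 0.86 to 0.99998 with a median of 0.98, and 36 pairs passed by r and 35 by rho (exact permutation). Within WSB, which does not hold CAST_142, r was 0.81 (Ppp1r1b and Pde10a) to 0.994 (Penk and Tac1) with a median of 0.96, and 35 pairs passed by r but 16 by rho (exact permutation over 6 animals). Without the 2 farthest animals of each pair, r within WSB was 0.19 to 0.999 with a median of 0.74. Without CAST_142 the peptide genes kept r = 0.963 with each other, although Penk belongs to the indirect pathway and Tac1 to the direct one. Pde10a had the lowest median r with the other members over 12 animals, at 0.91. Over the 11 animals Tac1 had the lowest median r, at 0.85, and Pde10a was next at 0.87. All values of an animal share its library and its tissue sample.

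**Figure D4:**
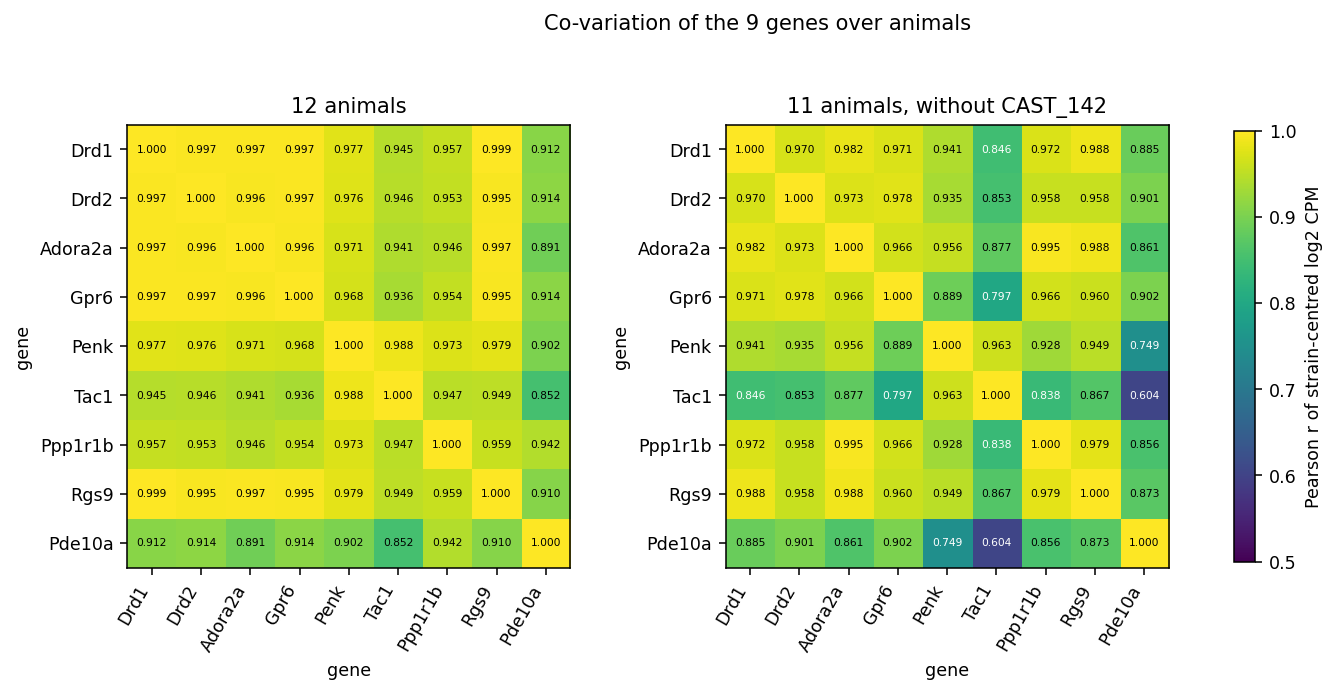
Pearson's r of strain-centred log2 CPM for every pair of the 9 genes, over 12 animals (left) and over the 11 without CAST_142 (right), as colour and printed value. The lowest value is that of Tac1 and Pde10a in both panels, 0.85 and 0.60.

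Ratios within an animal compare members free of library scaling. Drd1 over Drd2, the balance of direct and indirect receptors, was 1.31 to 1.44 over the CAST animals (median 1.35) and 1.17 to 1.48 over WSB (median 1.30). The log2 difference between strains was 0.06 (exact permutation p = 0.294, adjusted over the 4 ratios 0.392), and 0.055 without CAST_142 (adjusted 0.462). Tac1 over Penk was 0.306 to 0.401 in CAST (median 0.335) and 0.289 to 0.322 in WSB (median 0.315), a difference of 0.15 on the log2 scale (exact permutation p = 0.0606, adjusted 0.121), and passed at 0.18 without CAST_170 (adjusted 0.0433) or CAST_201 (adjusted 0.0346), and was 0.10 without CAST_142 (adjusted 0.234). Ranges overlapped for both ratios, and CAST_142, low in every one of these genes, lay inside the CAST range of Drd1 over Drd2 and had the highest Tac1 over Penk (0.401). Ppp1r1b over Pde10a was 0.162 to 0.302 in CAST and 0.208 to 0.324 in WSB, and differed by -0.09 (exact permutation p = 0.606, adjusted 0.606), and by 0.022 without CAST_142 (adjusted 0.866).

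Drd1 over Adora2a was the ratio that passed. It was 0.867 to 2.11 in CAST (median 0.963) and 0.801 to 0.912 in WSB (median 0.839), a log2 difference of 0.36 (exact 2-sided permutation p = 0.00866, adjusted 0.0346). The value of 2.11 belongs to CAST_142, and the ranges overlapped between 0.867 and 0.912. Without CAST_142 the difference was 0.17 (exact permutation p = 0.0152, adjusted 0.0606), which no longer passed after adjustment. With any 1 of the 6 WSB animals left out it was 0.34 to 0.38 and did not pass either (exact permutation, adjusted p = 0.0693 to 0.165). A higher ratio says that Adora2a stood lower against Drd1, not which of them moved.

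**Figure D5:**
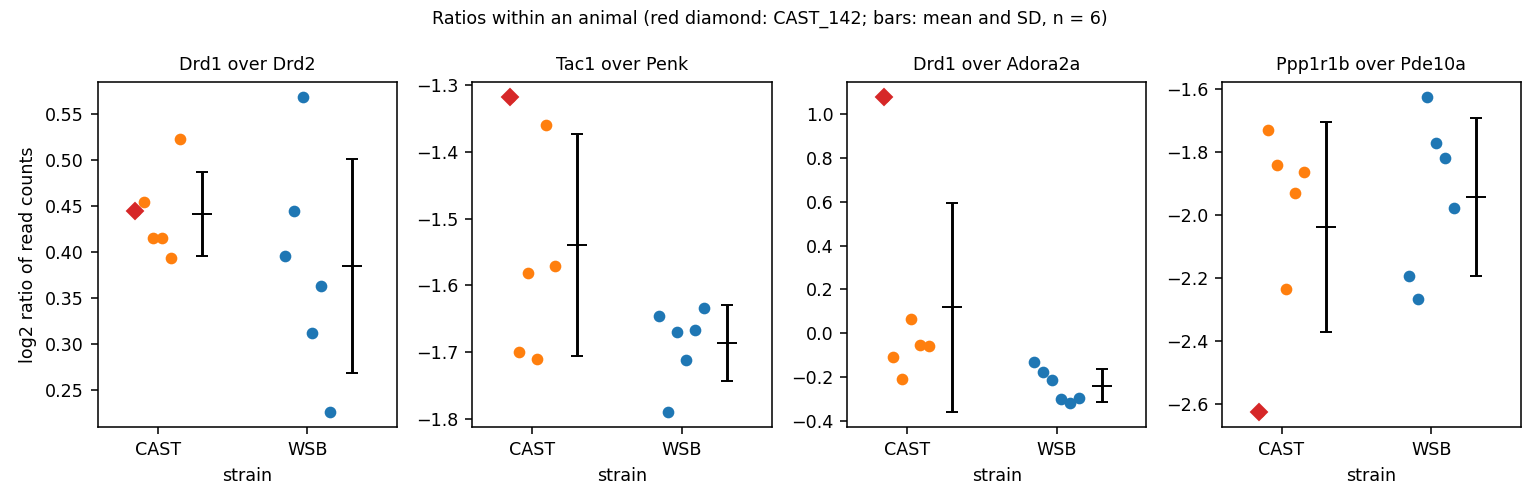
Log2 ratio of the read counts of 2 genes (vertical, with its own scale in each of the 4 panels) for every animal of CAST and WSB (horizontal), with CAST_142 as a red diamond and bars for the mean and SD over 6 animals. In Drd1 over Adora2a the diamond, a ratio of 2.11, stands far above all other animals, while in Drd1 over Drd2 it lies among them.

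Strain differences were also compared at a matched level of other striatal genes, because the shared swing between animals widens every interval above. The mean z score of 32 other striatal genes, none of them a member, entered the fit as a covariate. Penk was then lower in CAST, at -0.26 ± 0.07 on the log2 scale (SE; edgeR, adjusted p = 0.0111), and it was the 1 of 9 genes called, against 46.1% of all genes called and 23.3% called lower in CAST. With the covariate and without CAST_142, an alternative added after the data were seen, 2 of 9 genes were called against 46.8% of all genes, and both were lower in CAST, as were 23.9% of all genes. Penk was at -0.26 ± 0.08 (SE; 95% interval -0.43 to -0.10; edgeR, adjusted p = 0.0131) and Adora2a at -0.19 ± 0.06 (interval -0.33 to -0.05; adjusted p = 0.0264). Both are genes of the indirect pathway, but Drd2 at -0.09 ± 0.06 (interval -0.22 to 0.04; adjusted p = 0.241) and Gpr6 at 0.09 (interval -0.09 to 0.26), of the same neurons, were not called. Drd1 was at -0.03 (interval -0.12 to 0.07) and Tac1 at -0.17 (interval -0.42 to 0.09; adjusted p = 0.271). Shares of 1 or 2 in 9 lie below the share of all genes called, and some genes of the covariate differ between strains themselves.

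Of 33 other striatal genes (signalling partners, other direct and indirect pathway genes, transcription factors and striatum-enriched genes), 32 were tested, and 2 were called higher in CAST, 1 lower and 29 not called by edgeR, with a median log2 difference of -0.21. Over all 18425 genes tested, 21.5% were called higher and 21.2% lower in CAST. Syndig1l, a striatum-enriched membrane protein, was higher in CAST at 66.8 ± 28.8 CPM against 34.7 ± 6.95 (SD over 6 animals each), which is a log2 difference of 0.95 ± 0.29 (SE; edgeR, adjusted p = 0.0190). Ebf1, a transcription factor of direct pathway neurons, was called higher at 0.89 ± 0.29 (adjusted p = 0.0238), with 41.5 CPM in CAST_142 and 7.39 to 14.1 in all other animals, and its difference was 0.46 without that library (adjusted p = 0.00346). Without WSB_169 it was 0.81 and not called (edgeR, adjusted p = 0.0522). Gnb5, the G protein subunit that partners Rgs9, was lower at 44.2 ± 5.05 CPM against 61.2 ± 1.95 (SD over 6 animals each; log2 difference -0.47 ± 0.07 SE; edgeR, adjusted p = 7.48e-05), though 23.4% of its body lies outside other genes. Without CAST_142, 2 genes were higher and 2 lower, Tmem158 being added at -0.37. Syndig1l was then at 1.13 (edgeR, adjusted p = 0.000678) and Gnb5 at -0.43 (adjusted p = 2.88e-05).

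Receptors related to the members, for dopamine, adenosine, opioid and tachykinin ligands, gave 4 higher in CAST and 1 lower of 10 tested. Of all 18425 genes tested, 42.7% were called, so the count does not set these receptors apart. Adora2b, the low-affinity adenosine receptor, was higher at 7.53 ± 1.22 CPM against 3.01 ± 0.347 (SD over 6 animals each; log2 difference 1.32 ± 0.12 SE; edgeR, adjusted p = 1.36e-06). Oprd1, the delta opioid receptor at which enkephalins act, was lower at 25.5 ± 5.89 CPM against 41.7 ± 5.13 (SD over 6 animals each; log2 difference -0.71 ± 0.15 SE; edgeR, adjusted p = 0.00154). Adora1 was higher at 209 ± 27.3 CPM against 151 ± 26.1 (SD over 6 animals each; 0.47 ± 0.11 SE; adjusted p = 0.00384), and Drd5 and Drd4 were higher by 0.66 and 1.13 on the log2 scale with edgeR adjusted p-values of 0.0279 and 0.0451. Both lay at low levels. Drd5 had 1.64 ± 0.475 CPM in CAST and 1.04 ± 0.308 in WSB (SD over 6 animals each), on 667 reads over all animals. Only 51.4% of its exon bases lie outside other genes. Drd4 had 0.421 ± 0.284 and 0.190 ± 0.0974 CPM (SD over 6 animals each), on 155 reads over all animals. Adora1, Drd5 and Drd4 are named after their values were seen. Without CAST_142, Drd4 was at 0.66 with an edgeR adjusted p of 0.0939, and it also lost its call without CAST_202 or any of WSB_120, WSB_135, WSB_138, WSB_147 and WSB_169 (0.97 to 1.18, adjusted p = 0.0599 to 0.0901). Drd5 lost its call without CAST_202 or any of WSB_100, WSB_135, WSB_147 and WSB_169 (0.51 to 0.65, edgeR adjusted p = 0.05004 to 0.0623). Adora2b (1.41), Oprd1 (-0.60), Adora1 (0.41) and Drd5 (0.63) kept their calls without CAST_142, with edgeR adjusted p-values of 3.31e-08, 0.000423, 0.00766 and 0.0400. The product of Adora1 couples to Gi and lowers cyclic AMP, while that of Adora2a, a gene not called in the same fit, raises it.

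Of 9 tested markers of striatal interneurons, 2 were called and both were lower in CAST by edgeR. For this and the other marker counts below, the shares over all 18425 genes tested were 21.5% higher and 21.2% lower in CAST. Npy had 34.5 ± 8.58 CPM against 55.6 ± 7.56 (SD over 6 animals each; log2 difference -0.69 ± 0.16 SE; edgeR, adjusted p = 0.00337), and Sst had 105 ± 20.9 against 137 ± 12.1 (-0.39 ± 0.12 SE; adjusted p = 0.0228). Without CAST_142, where both were lowest, they were at -0.58 and -0.29 (edgeR, adjusted p = 0.00210 and 0.00589). Both peptides are also made by interneurons of cortex and hippocampus. Of 5 tested markers of dopamine neurons, which supply the ligand of Drd1 and Drd2, 0 were called, and Nr4a2, the most abundant, had a log2 difference of 0.30. Over the markers of other regions and cell types, 0 genes were called on the cortical (of 8), thalamic (of 5), hypothalamic (of 7), general neuronal (of 6) and oligodendrocyte (of 6) lists. Lower in CAST were 3 of 7 hippocampal, 1 of 4 olfactory bulb, 2 of 5 microglial and 1 of 4 choroid plexus markers, 1 of 5 astrocyte and 1 of 5 endothelial markers were called in each direction, and 3 of 7 cerebellar markers were called higher in the fit that holds CAST_142. The olfactory bulb marker, Doc2g, had a WSB mean of 3.35 CPM but a WSB median of 1.41, with 13.8 in the highest WSB animal.

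The genes whose level over the animals was most like that of the 9 were found by Pearson's r with the mean strain-centred z score of the members, among 12358 genes, as a description. Over 12 animals these were Pde1b (0.999), Adcy5 (0.996), Rxrg (0.996), Gng7 (0.995), Actn2 (0.994), Cd4 (0.993), Tmem158 (0.992) and Lmo3 (0.991). Adcy5 is the main adenylyl cyclase of striatum and Gng7 a subunit of the G protein that drives it. The most opposite were Tcp11l1 (-0.985), Ttc17 (-0.974), Ttll5 (-0.971), Mov10l1 (-0.969) and Itm2b (-0.967). Over the 11 animals without CAST_142 the nearest were Pde1b (0.996), Adcy5 (0.989), Bcr (0.980), Gng7 (0.976), Rxrg (0.975), Rarb (0.973), Ric8b (0.973) and Arel1 (0.971), and the most opposite Dtx4 (-0.954), Cbfb (-0.934), Tcp11l1 (-0.919), Pqlc1 (-0.917) and Tex2 (-0.915). Of the 32 other striatal genes, 28 had r over 0.8 over 12 animals and 19 over 11 animals. An r near 0.8 was less rare over 12 animals, where Meis2 (0.80) ranked 858 of 12358 genes. Over 11 animals Arpp21 (0.81) ranked 154. Ebf1 ran opposite over 12 animals (-0.86), and Rgs7bp and Eya1 had r of 0.23.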

How the data were processed

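Brain RNA of 12 animals was sequenced on lanes 5 and 6, giving 24 deposited files of whole-number read counts per gene. Per the submitters' processing notes, cutadapt, TopHat2 2.1.1, HTSeq and DESeq2 were used; their roles, and the genome build, annotation and strandedness, were not given in the sources used here. Counters that name no gene, holding 32.0% to 37.1% of the alignments, were left out. Lanes were summed per animal (chi-square per degree of freedom 1.09 to 1.40 between lanes, 3.53 to 84.6 between animals of a strain), and animals are the replicates. Of the 53465 identifiers, 53274 were in GENCODE M21.

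Counts were tested with edgeR 4.0.16 in R 4.3.3 (limma 3.58.1; TMM scaling, filterByExpr by strain, robust quasi-likelihood, no covariate), with Benjamini-Hochberg adjustment over all genes tested and a threshold of 0.05; the script was tested on simulated counts. CPM used TMM sizes, and log2 CPM a prior count of 2. Ratios were tested by exact permutation and correlations by permutation within strain. Alternatives were other scalings, filters, DESeq2 1.42.0, each lane, each animal left out, and covariates. The rule for names took all members, up to 2 called genes of each pathway list by p, and the 8 most like and 5 most opposite genes by r, from a mean log2 CPM of 1 upward. The members and lists were chosen with earlier results of these data known. Lists covered striatal, receptor, interneuron, dopamine neuron, brain region and cell type markers.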

Additional observations from a re-analysis of the deposited data

Results flagged for a closer look

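A total of 50 groups of 6 animals (the members, their ratios, marker scores and named genes in each strain) were searched for an animal far from the rest by Dixon's criterion on the log2 scale, which chance alone meets in about 1 of 20 groups. It was met in 13, and the animal was CAST_142 in each. Among the members these were its low values of Drd1 (5.63 CPM), Drd2 (4.13 CPM), Adora2a (2.67 CPM), Gpr6 (1.02 CPM), Penk (26.5 CPM), Tac1 (10.6 CPM) and Rgs9 (28.4 CPM). Ppp1r1b and Pde10a, also lowest in CAST_142, did not meet it. The ratio of Drd1 over Adora2a was high in CAST_142 at 2.11. Its mean z score was -2.37 over the other striatal genes and 2.78 over the cerebellar genes. Among other named genes, Ebf1 at 41.5 CPM and Drd4 at 0.994 CPM were higher in CAST_142 than in all other animals, and Adora2b at 5.24 CPM was below the other CAST animals.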

How the results depend on the processing

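Of 580 recomputed values of 26 results, 524 kept their direction and their side of the threshold, 20 reversed, 29 weakened, 5 strengthened and 2 moved. The count of members called was 1 with other striatal genes as covariate and 2 with that covariate and without CAST_142 (added after the data were seen), and 0 under every other setting run. Log2 differences that turned positive were, with the cerebellar genes as covariate, Drd1 at 0.017, Gpr6 at 0.17, Ppp1r1b at 0.10, Rgs9 at 0.049 and Pde10a at 0.088. With the striatal covariate they were Gpr6 at 0.076, Ppp1r1b at 0.11 and Pde10a at 0.077, and with that covariate and without CAST_142, Gpr6 at 0.089, Ppp1r1b at 0.096, Rgs9 at 0.0059 and Pde10a at 0.057. Without CAST_142 and WSB_100 they were Gpr6 at 0.030, Ppp1r1b at 0.0064 and Pde10a at 0.053. Leaving out each animal in turn gave Gpr6 from -0.36 to 0.052, Ppp1r1b from -0.27 to 0.050 and Pde10a from -0.20 to 0.045, positive without CAST_142 for all 3 and without CAST_202 for Pde10a. The difference in Drd1 over Adora2a was 0.34 on lane 6 alone (exact permutation, adjusted p = 0.0606), 0.19 without CAST_142 and WSB_100 (adjusted p = 0.0635), and 0.17 to 0.42 with each animal left out (adjusted p = 0.00866 to 0.165), and it missed the threshold without CAST_142 and without each WSB animal. Tac1 over Penk ranged from 0.10 to 0.18 (exact permutation, adjusted p = 0.0346 to 0.316) and passed without CAST_170 or CAST_201, and Ppp1r1b over Pde10a ranged from -0.16 to 0.022. Ebf1, Syndig1l, Drd5 and Drd4 lost their call under at least 1 setting. The causes of these changes were not tested. No paired analysis was possible because the strains share no animal numbers. Gpr6 in CAST_142 rests on 45 reads, so its share there is less precise than that of Pde10a on 10376.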
